A study of Mus musculus with 8 samples.

Results

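Micro_3 is one of 4 microglia clusters that the authors named among leukocytes of mouse brain, pia and dura before and after stroke. Its members are all cells whose deposited cluster name is Micro_3, each joined by its barcode to the library it came from, which gave 1590 cells of 32457 annotated cells (4.90%) in 8 libraries. Brain supplied 1461 of them (91.9%), with 506 in control brain, 469 and 283 in replicates 1 and 2 of brain at 24 h, and 203 in brain at 72 h. Pia held 108 and dura 21.

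Microglia are the resident macrophages of the brain parenchyma. They settle there in embryonic life, renew themselves locally and depend on the receptor Csf1r. In the healthy brain they carry surveillance receptors such as the purinergic receptor P2ry12 and the fractalkine receptor Cx3cr1, and a set of genes kept up by TGF-beta signalling, of which Tmem119 is the usual marker. After ischemia microglia can lower these genes, secrete chemokines that attract monocytes and neutrophils, and take up debris.

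All mice were adult male wild-type C57BL/6. The stroke groups had undergone transient occlusion of the middle cerebral artery (MCAO) and were analysed 24 h or 72 h later, while the control mice had no stroke. An antibody against CD45 was injected into the blood before perfusion, and the sorted cells were CD45+ but not stained by that antibody (CD45iv-), a gate that enriches leukocytes inside the tissue. Control and 24 h were sampled in brain, pia and dura and 72 h in brain alone, with 1 library each except for brain at 24 h, which had 2. Mice were pooled, and the study gives a total per tissue but not the number behind each library, so that differences between libraries may be technical, and in a sum over cells fewer expressing cells cannot be told apart from less RNA per cell.

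The brain libraries fell into 2 pairs before any gene was compared. The second replicate of 24 h and the 72 h library had 13 cell barcodes in common, the other 6 libraries shared 12 to 43 per pair, and across these sets each of the 12 pairs shared at most 2, so the sets hold different barcode lists. The sets also differ in annotation, with 31053 genes listed for this pair and 32285 for the other libraries, and only the 30406 genes in both lists were compared. No barcode was shared between Micro_3 cells of 2 libraries. Micro_3 cells of control brain and of replicate 1 had medians of 1688.5 and 1963 unique molecular identifiers (UMIs, one per captured transcript), with a mitochondrial share of 0.740% and 0.659%. Those of replicate 2 and of 72 h had 1104 and 2422 UMIs and mitochondrial shares of 3.08% and 2.36%. Across 9738 genes, the summed Micro_3 profiles correlated at r = 0.907 between control and replicate 1 and at 0.869 between replicate 2 and 72 h, but only at 0.702 between the replicates of 24 h. These r values describe genes that share libraries, depth and gene length, and genes are not independent replicates. Levels were therefore compared mainly within a library, against Micro_1 and Micro_2, or within a barcode set, and values set side by side across the sets carry this difference.

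The label was checked against microglia markers, which were present in each library but differed in level between them. For each cluster and library, UMIs were summed over cells and scaled to counts per 1000000 UMIs (CPM), as in the plot of levels in 3 microglia clusters. Tmem119 stood at 3314 CPM in control Micro_3, 2098 and 712 CPM in replicates 1 and 2 at 24 h and 733 CPM at 72 h. It was lower than in Micro_1 and in Micro_2 of the same library in each of these 4 libraries. Cx3cr1 was at 1769, 1503, 2564 and 2014 CPM in the same order.

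After each cell was thinned to 500 UMIs, 76.7% of control Micro_3 cells carried a Tmem119 UMI (97.8% without thinning), against 10.3% of lymphoid cells of that library, which should lack the gene. The median depths of these cells were 1683 and 1235 UMIs on the genes shared by all libraries. At 24 h, 58.6% and 29.7% of Micro_3 cells had one, and at 72 h 32.7%, against lymphoid shares of 4.17%, 3.89% and 1.79%. Tmem119 was therefore detected above the lymphoid background in all 4 brain libraries, with the higher shares in the control library and in replicate 1.

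**Figure D1:**
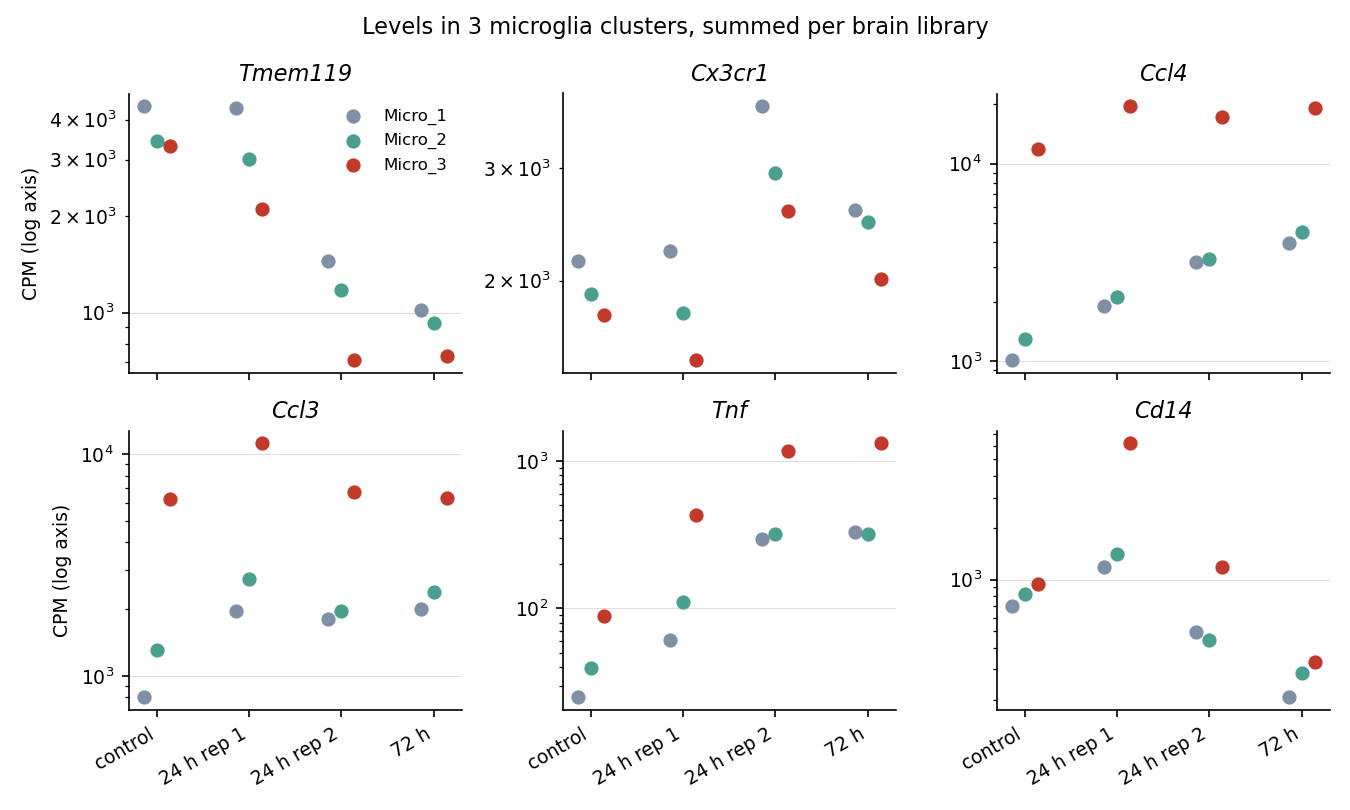
Levels of 6 genes in CPM on a log axis, for Micro_1, Micro_2 and Micro_3 in the control library, both replicates of 24 h and the 72 h library; each point is the sum over the cells of a cluster in 1 library. Ccl4, Ccl3 and Tnf are highest in Micro_3 in each library (Ccl4 11900.0 CPM in control against 1016 and 1297 CPM in Micro_1 and Micro_2), while Tmem119 and Cx3cr1 are lowest there.

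Micro_3 was compared gene by gene with Micro_1 and Micro_2 of the same library. For each gene a log2 ratio was taken in each library, the log2 CPM of Micro_3 minus the mean log2 CPM of Micro_1 and Micro_2, with 0.5 counts added. The clusters were made from these same counts, so the ratios are a description without a test. A gene was counted as higher or lower where the mean over the 4 brain libraries was at least 1.5-fold with the same sign in all 4. Of 9738 genes tested, 431 (4.43%) were counted higher and 383 (3.93%) lower. A gene without any UMI in the 3 clusters of a library still gets a ratio above 0 there, from the 0.5 counts added to the smaller Micro_3 sum. This was so for 26 of the 431 genes, none of them in a gene list described here, and for 0 of the 383. Among the 9573 genes with a UMI in each library, a choice made after seeing the data, 405 (4.23%) were counted higher, and the 383 counted lower stayed as they were. With each cell thinned to 500 UMIs 728 genes were counted higher, 246 of them shared with the 431, and 372 lower, 108 of them shared with the 383, so most of the genes counted lower were not counted in thinned cells. Since many genes had few UMIs, the count was repeated, as a choice made after seeing the data, over the 1526 genes with a mean of at least 100 CPM in the 3 clusters of the 4 libraries, of which 64 (4.19%) were higher and 42 (2.75%) lower. The ratios of single genes varied between libraries, as their correlation across genes lay between 0.065 and 0.344 for the 6 pairs of libraries.

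Ccl4 encodes a chemokine that attracts monocytes and T cells, and it had the highest mean ratio of the 1526 abundant genes. In Micro_3 it was at 11900.0 CPM in control brain, 19490.0 and 17172 CPM at 24 h and 18999 CPM at 72 h. Its ratio was 3.37, 3.28, 2.41 and 2.17 in these libraries, a mean of 2.81 ± 0.61 (SD, n = 4), or 7.01-fold. The median Micro_3 cell held 18, 31, 15 and 43 Ccl4 UMIs, while the median in Micro_1 and Micro_2 was between 0 and 3. After thinning to 500 UMIs, 97.4% to 100% of Micro_3 cells had a Ccl4 UMI in the 4 libraries (99.6% to 100% without thinning). The same share was 28.2% to 67.7% in Micro_1, 33.6% to 67.5% in Micro_2 and 25% to 31.9% in lymphoid cells, a class whose NK and T cells can express Ccl4 themselves. Ccl4 thus marked nearly every cell of Micro_3, in control brain as well as after MCAO.

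Several of the chemokine and cytokine genes counted higher have well-studied promoters, so the 250 bases before the start sites of 4 of them are shown. They are from RefSeq on GRCm38.p6, and of 5 genes looked up these 4 were found. They lie at chr5:90903649-90903898 on the plus strand for Cxcl2, chr5:92348890-92349139 on the minus strand for Cxcl10, chr11:83649379-83649628 on the minus strand for Ccl3 and chr17:35202008-35202257 on the minus strand for Tnf. Each is printed 5′ to 3′ in the direction of transcription, and capitals mark matches on either strand to a loose form of the NF-kappaB motif, GGG followed by any 5 bases and CC.
Cxcl2: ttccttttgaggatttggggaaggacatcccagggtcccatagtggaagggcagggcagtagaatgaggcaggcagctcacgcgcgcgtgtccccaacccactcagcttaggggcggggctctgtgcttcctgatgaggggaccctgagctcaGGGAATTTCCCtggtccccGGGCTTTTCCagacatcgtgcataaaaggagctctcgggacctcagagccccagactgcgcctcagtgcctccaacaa
Cxcl10: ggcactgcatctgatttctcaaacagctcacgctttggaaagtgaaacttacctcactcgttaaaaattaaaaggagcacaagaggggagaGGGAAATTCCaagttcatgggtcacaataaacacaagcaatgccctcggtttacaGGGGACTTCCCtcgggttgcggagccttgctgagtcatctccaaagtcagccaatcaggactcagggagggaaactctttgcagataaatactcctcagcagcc
Ccl3: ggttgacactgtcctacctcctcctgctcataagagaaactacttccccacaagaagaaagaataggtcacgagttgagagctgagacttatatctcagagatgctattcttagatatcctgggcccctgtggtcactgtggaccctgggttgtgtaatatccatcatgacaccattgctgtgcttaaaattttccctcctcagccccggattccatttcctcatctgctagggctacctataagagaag
Tnf: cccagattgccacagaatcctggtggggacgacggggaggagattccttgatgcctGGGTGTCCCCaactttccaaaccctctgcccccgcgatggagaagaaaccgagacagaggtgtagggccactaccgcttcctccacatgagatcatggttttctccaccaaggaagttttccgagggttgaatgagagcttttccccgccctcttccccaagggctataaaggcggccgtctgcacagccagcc
Cxcl2 held 3 matches and Cxcl10 held 3, some of them overlapping, Tnf held 1 and Ccl3 held 0. Among all 32851 promoters of the same length, 45.8% had at least 1 match, so the motif is common. TGANTCA, an AP-1 motif found in 6.75% of promoters, occurred once in Cxcl10, and TATAAA, found in 12.4%, once in Tnf. A match describes letters and is not a bound site.

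All 11 tested genes of a list of 13 CC and CXC chemokines were counted higher in Micro_3, with a median mean ratio of 1.63, against -0.02 over all genes tested. Of all genes tested, 4.43% were counted higher. Ccl3, a related chemokine, stood at 6251 CPM in control, 11156 and 6762 CPM at 24 h and 6331 CPM at 72 h. Its mean ratio was 2.06 ± 0.47 (SD, n = 4). Ccl2 and Ccl12, ligands of the monocyte receptor Ccr2, had mean ratios of 1.63 and 1.43. Among the brain libraries both were highest at replicate 1 of 24 h, with 1532 CPM for Ccl2 and 3348 CPM for Ccl12, and control pia was above that, at 1599 and 3671 CPM.

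Other chemokines of the list were scarce in Micro_3 of control brain. Cxcl2, a neutrophil attractant, had 14 UMIs there and 521, 211 and 207 UMIs in the libraries after MCAO, or 16.2 CPM against 526, 428 and 379 CPM. These UMIs lay in 9 control cells and in 96, 37 and 35 cells afterwards. A single cell held 68 of them in replicate 2 and a single cell 40 at 72 h. The ratio of Cxcl2 was 0.36 in control and 3.38, 2.44 and 3.62 afterwards. In pia the order was the opposite, with 3928 CPM in control Micro_3 and 1736 CPM at 24 h, and ratios of 2.38 and 0.86. Micro_2 of pia was only 45 and 61 cells and carried the border macrophage genes Lyve1 (532 and 296 CPM) and Cd163 (311 and 266 CPM). Both were at 0 CPM in Micro_2 of the brain libraries, so ratios in pia are not taken against like cells. Cxcl10, an interferon-induced ligand of Cxcr3, had its highest level at 72 h with 1600.0 CPM, after 15.1 CPM in control and 40.4 and 628 CPM at 24 h. Ccl5 had a ratio of 4.30 in replicate 1 of 24 h and between 0.42 and 1.14 in the other libraries, so its mean of 1.58 rested on 1 library.

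Among 22 NF-kappaB targets and cytokines, 11 were counted higher and 0 lower, with a median mean ratio of 0.92. The shares of all genes tested were 4.43% higher and 3.93% lower. Tnf, an early inflammatory cytokine, was at 89.3 CPM in control, 430 and 1164 CPM at 24 h and 1316 CPM at 72 h, and its ratio lay between 1.51 and 2.39 with a mean of 1.96 ± 0.36 (SD, n = 4). The interleukin Il1a had a mean ratio of 0.91 and Il1b one of 2.58, but Il1b counted only 6 UMIs in control and 12 at 72 h. Nfkbia, the inhibitor that NF-kappaB itself induces, had a mean ratio of 0.76, and Nfkbid, a related nuclear inhibitor, one of 1.21. Outside this list, Osm, a cytokine of the interleukin-6 family, had a mean ratio of 1.36 and Id2, an inhibitor of basic helix-loop-helix factors, one of 1.31. Not all members differed in this way, as Icam1 had a mean ratio of 0.19 and Nlrp3 one of 0.31.

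Genes described in disease-associated microglia were split. Of 20 tested, 11 were counted higher and 0 lower, against 4.43% and 3.93% of all genes tested, with a median mean ratio of 0.65. Lpl, lipoprotein lipase, was at 17.4 CPM in control Micro_3, 657 and 541 CPM at 24 h and 148 CPM at 72 h, and its ratio was 4.62 in replicate 1 and 0.55 at 72 h. Csf1, the ligand of Csf1r, had 49.9, 235, 683 and 367 CPM and a mean ratio of 1.43. Spp1, osteopontin, counted only 4 UMIs in control and was at 607, 361 and 414 CPM afterwards, yet its mean ratio was 0.63, since Micro_1 and Micro_2 carried 388 and 359 CPM of it in replicate 1. Apoe did not separate the clusters, with a mean ratio of 0.31 ± 0.29 (SD, n = 4).

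The interferon list had 8 of 18 tested genes counted higher and 0 lower, with Isg15, a ubiquitin-like modifier, at a ratio of 0.05 in control and 1.61, 2.60 and 2.45 afterwards. Of 16 genes of glycolysis and hypoxia, Ldha, Gapdh, Pkm and Pgk1 were counted higher, all of them glycolytic enzymes. Only 1 of 42 cytosolic ribosomal protein genes was counted higher, although the list's median ratio was 0.58 and 0.65 at 24 h, 0.11 in control and 0.29 at 72 h. No gene of MHC class I (13 tested) or MHC class II (9 tested) and none of the 13 mitochondrially encoded genes was counted in either direction. Of the lists of cathepsins and lysosome (22 tested), complement (10), heat shock (14), sterol synthesis (9) and cell cycle (16), 1, 1, 1, 1 and 3 genes were counted higher and 0 lower. With 4.43% of all genes tested counted higher and 3.93% lower, counts of 0 or 1 in lists of this size say little.

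**Figure D2:**
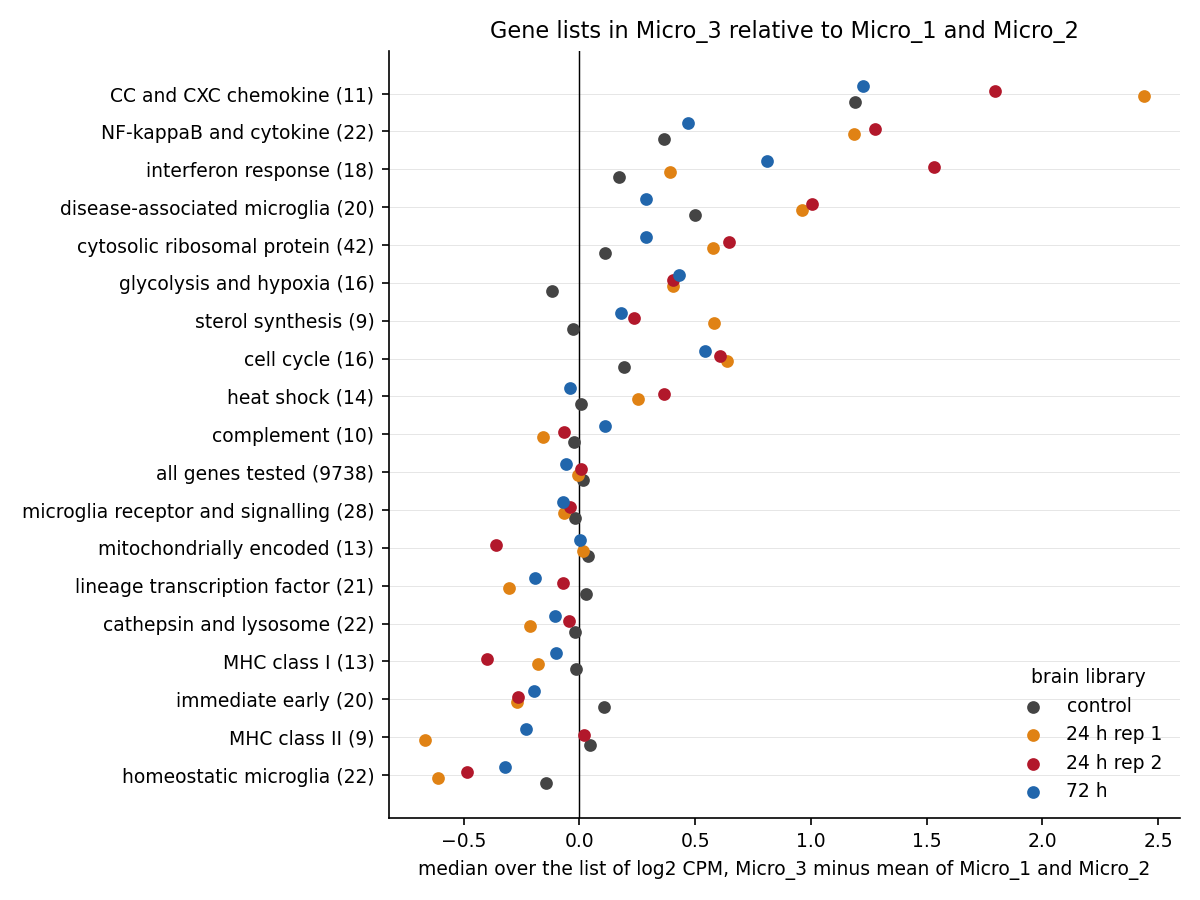
Median over each gene list of the log2 ratio of Micro_3 to the mean of Micro_1 and Micro_2, with 1 point per brain library and the number of genes tested in brackets. Of the lists shown, the chemokine list is highest in all 4 libraries (1.19 in control, 2.44 and 1.79 at 24 h, 1.23 at 72 h) and the list of homeostatic genes lies below 0 in all 4, with all genes tested near 0.

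Of 22 homeostatic genes of microglia, 4 were counted lower in Micro_3 and 0 higher, against 3.93% and 4.43% of all genes tested. The median ratio of the list was -0.14 in control brain, -0.61 and -0.49 at 24 h and -0.32 at 72 h, but in pia it was above 0, at 0.20 in control and 0.30 at 24 h. The 4 were P2ry12, the fructose transporter Slc2a5, the sialic acid-binding receptor Siglech and Tgfbr1, a receptor chain of TGF-beta. P2ry12 was at 6042 CPM in control, 1621 and 290 CPM at 24 h and 458 CPM at 72 h, with ratios of -0.22, -1.06, -0.71 and -0.47. The lineage factors Maf and Cebpa, 2 of 21 transcription factors tested, were also counted lower, with mean ratios of -0.87 and -0.73.

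Immediate early genes, which respond within minutes to stimuli that include tissue dissociation, went both ways. Fosb was lower in Micro_3 in all 4 brain libraries, with 598 CPM in control against 935 and 1120.0 CPM in Micro_1 and Micro_2, and a mean ratio of -1.34. Klf4 and Jund had mean ratios of -1.05 and -0.59. Ier3 and Egr3 were counted higher, at 1.23 and 0.76, and the median of the 20 genes was -0.18. The lowest mean ratio of any abundant gene was that of Tmx4, a thioredoxin-related membrane protein, at -1.57 ± 0.47 (SD, n = 4).

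Without regard to abundance, the 10 highest mean ratios were those of Acod1, Olfr132, Cd69, Il12b, Ch25h, Mmp12, Uhrf1, Plp2, Ccl4 and Mcpt8. Except for Ccl4 they counted at most 3 UMIs in control Micro_3, and Acod1, Olfr132, Plp2 and Mcpt8 had none in the 3 clusters of control brain, where their ratio of 1.58 comes from the added counts alone. Mcpt8 also had none in replicate 1, and its place rests on 40 UMIs at 72 h. Acod1, which makes itaconate, had 0 UMIs in control and 16, 39 and 24 afterwards, and Il12b, a subunit of interleukins 12 and 23, had 0 and then 8, 24 and 21. The 10 lowest, Ccdc96, Gm47230, Noxo1, Nhsl2, Vipr1, Pde6a, Dusp18, Cdh23, Zfp874b and Zfp961, had 0 to 10 UMIs per library and carry little information.

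The change at 24 h could be tested against that of the other microglia, though control brain is 1 library. The spread in this test therefore comes from the brain libraries of 24 h, and control has none of its own. The test asks whether the log2 change from control to 24 h in Micro_3 differs from the mean change in Micro_1 and Micro_2, with the library as a block, over 12 sums from the 4 brain libraries. By edgeR's quasi-likelihood test, 42 of 9738 genes (0.431%) were called higher and 15 (0.154%) lower, where a call needs a change past 2-fold and p under 0.05 after Benjamini-Hochberg adjustment. Of these 57 genes, 56 had the sign of the call in both 24 h libraries of brain. The calls were made from these libraries, so that agreement is no independent check. In pia, whose libraries were not in the test, only 18 had the sign of the call, against comparators unlike those of brain. Only 2 residual degrees of freedom stand behind the test, the same counts placed the cells in clusters, and DESeq2 called 2 genes, Cd14 and Fth1. In edgeR 17 genes were called among cells of at least 1000 UMIs and 0 without the library block. With pia added, a choice made after seeing the data, 14 were called.

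Cd14, the co-receptor that hands lipopolysaccharide to Tlr4, had the smallest adjusted p. It was at 939 CPM in control Micro_3, 6193 and 1184 CPM at 24 h and 330 CPM at 72 h, with ratios of 0.30, 2.26, 1.33 and 0.44. The change exceeded that of Micro_1 and Micro_2 by 1.57 ± 0.21 (SE) on the log2 scale, with an adjusted p of 4.3e-10 in edgeR's quasi-likelihood test. Fth1, the ferritin heavy chain that stores iron, was at 2546, 7072, 4121 and 4867 CPM and differed by 1.07 ± 0.20 (SE), with an adjusted p of 1.43e-04 in the same edgeR test. In brain both genes were therefore near the level of Micro_1 and Micro_2 in control and above it at 24 h. In pia the order was the opposite, with ratios of 0.93 in control and -0.03 at 24 h for Cd14 and of 0.85 and 0.26 for Fth1. The level of Cd14 in pia Micro_3 was 4143 CPM in control and 4700.0 CPM at 24 h, so the lower ratio went with the comparators, as Cd14 was at 1075 and 2277 CPM in Micro_1 and at 4422 and 10139 CPM in Micro_2 of pia.

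Of the 11 chemokines, 4 were called higher, Cxcl2, Ccl7, Ccl9 and Cxcl16, and 0 lower. Ccl9, a Ccr1 ligand, was at 189 CPM in control Micro_3, 546 and 116 CPM at 24 h and 178 CPM at 72 h, so replicate 2 lay below control in level. Its ratio exceeded that of control by 2.10 in replicate 1 and by 0.82 in replicate 2, and in pia it was 0.23 in control and 0.12 at 24 h. In the test Ccl9 differed by 1.79 ± 0.24 (SE), with an adjusted p of 1.18e-09 in edgeR's quasi-likelihood test, and Cxcl2 by 2.65 ± 0.43 (SE), with an adjusted p of 2.47e-06. This call is for brain, since the ratio of Cxcl2 in pia was higher in control (2.38) than at 24 h (0.86). Ccl4 and Ccl3, the genes that mark the cluster, were not called, at -0.50 with an adjusted p of 0.279 and at -0.55 with an adjusted p of 0.199 in the edgeR test. Their ratios were high in control brain already.

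From the other lists, the NF-kappaB list had 3 of 22 genes called higher, Cd14, the mitochondrial superoxide dismutase Sod2 and the prostaglandin synthase Ptgs2, the last with a single UMI in control. Slfn2 was called from the interferon list (1 of 18), Pkm from glycolysis (1 of 16), and Gpr84, a receptor for medium-chain fatty acids, and Tlr2 from the receptors (2 of 28), with 0 called lower in the first 2 of these lists. In the opposite direction were Cd33, a sialic acid-binding inhibitory receptor, at -1.01, and Maf at -1.11, each 1 call from its list of 28 and 21. No gene of the 22 homeostatic or of the 20 disease-associated genes was called in either direction, though Slc2a5 had an adjusted p of 0.0188 by edgeR with a smaller change of -0.90. Over all 9738 genes tested 0.431% were called higher and 0.154% lower. The absence of calls in lists of this size therefore says little about them.

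By size, the 5 highest calls were Trip12, Ptgs2, Slc7a11, Dab2 and Itga5. Slc7a11, the cystine transporter that feeds glutathione synthesis, had 4 UMIs in control and 165, 55 and 4 UMIs afterwards, and differed by 3.43 ± 0.73 (SE), with an adjusted p of 0.00163 in edgeR's quasi-likelihood test. Dab2, an endocytic adaptor, had 6 UMIs and then 189, 128 and 48, and Itga5, a chain of the fibronectin receptor, 8 and then 184, 47 and 20. Trip12, a ubiquitin ligase, had 0 UMIs in control Micro_3, while Micro_1 and Micro_2 were at 15.8 and 16.5 CPM there, so this call rests on the control library. The 5 lowest calls, Trim5, Prox1, Tatdn3, Elmod3 and Sp4, counted 7 to 19 UMIs in control and 0 to 4 at 24 h.

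**Figure D3:**
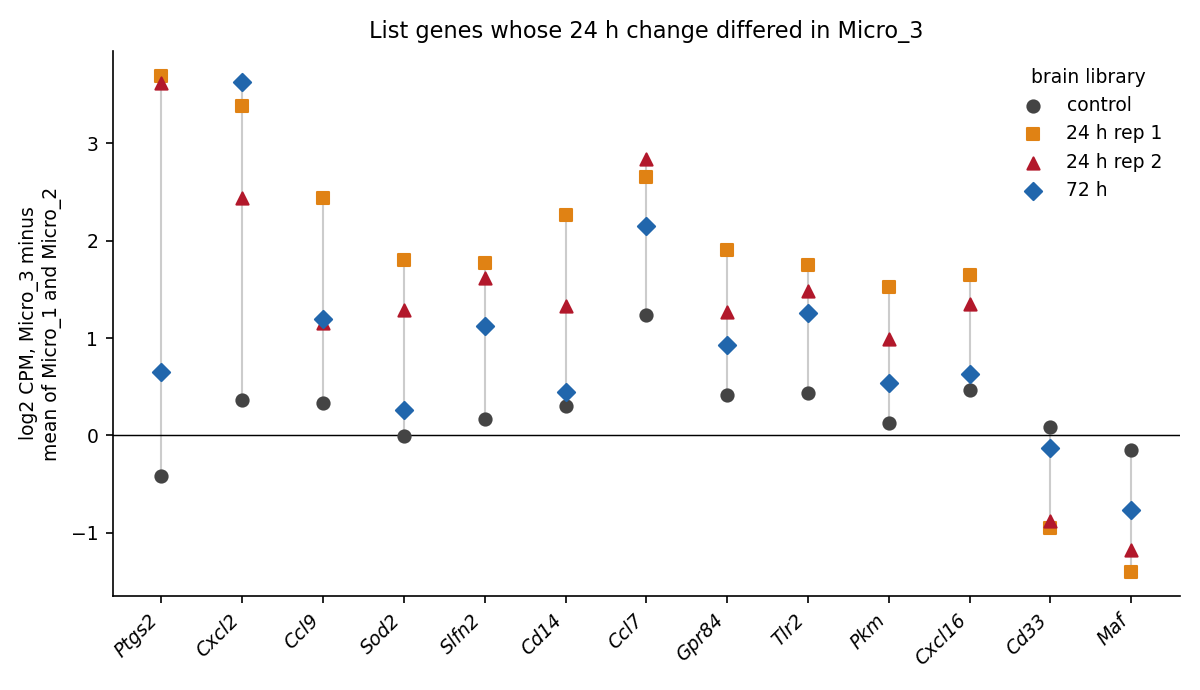
Log2 ratio of Micro_3 to the mean of Micro_1 and Micro_2 in each brain library, for the 13 genes of the lists that edgeR called in the test of the 24 h change. The points of both 24 h libraries lie above control for 11 genes and below it for Cd33 and Maf, and the 72 h point of Cd14 (0.44) is back near control (0.30).

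Cd14 was unevenly spread over the cells, which was looked at after its values were seen and is described without a test. In replicate 1 of 24 h, the 47 of 469 Micro_3 cells with the highest Cd14 share held 66.6% of the Cd14 UMIs but 14.2% of all UMIs. Their Cd14 level was 29093 CPM against 2407 CPM in the other cells. Ranking cells by Cd14 makes this gap by itself, and the lowest of the 47 cells had 11485 CPM and the highest of the others 11466 CPM. In replicate 1, only 1 of 1402 Micro_1 cells and 3 of 1116 Micro_2 cells were at or above the lowest of the 47. With the limit set likewise in each other library, it was 7 of 420 and 12 of 816 cells in replicate 2. In control it was 118 of 1864 and 106 of 1349 cells, and at 72 h 15 of 206 and 42 of 405 cells.

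Other genes separated with Cd14 in these 47 cells. Tmem119 was at 114 CPM against 2426 CPM in the other Micro_3 cells, and P2ry12 at 49.8 against 1881 CPM. Cx3cr1 was at 947 against 1595 CPM and Fcrls, an Fc receptor-like microglia gene, at 1823 against 2034 CPM, so these microglia genes were present in both. Il1rn, the interleukin-1 receptor antagonist, had 82.4% of its 364 UMIs in the 47 cells, Lpl 65.5%, Itga5 62.0% and Slc7a11 49.1%. Ccl4 was high in both, at 28203 and 18050 CPM. Of monocyte and border macrophage markers, Ly6c2, Ccr2, Plac8, Mrc1 and F13a1 were at 0 UMIs in the 47 cells, Pf4 had 1 and Fn1 had 6 of its 19 UMIs. The neutrophil gene S100a8 had 6 UMIs in the 47 cells and 5 in the others, 42.7 against 5.89 CPM.

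The 29 of 283 cells highest in Cd14 in replicate 2 had Tmem119 at 160 against 749 CPM. These cells held 6.33% of all UMIs. P2ry12 was at 128 against 301 CPM. Lpl was at 2051 against 439 CPM, Itga5 at 288 against 82.2 CPM and Slc7a11 at 705 against 71.4 CPM, each in the same direction as in replicate 1. They held 76.3% of the Il1rn UMIs, but these were 29 UMIs in 5 cells, and a single Micro_3 cell of that library had 20. In control brain the 51 of 506 cells highest in Cd14 had 2543 CPM of Tmem119 against 3396 CPM, and at 72 h the highest 21 of 203 had 649 against 741 CPM. At 72 h Lpl (89.55 against 154 CPM), Itga5 (22.4 against 37.9 CPM) and Slc7a11 (0 against 7.98 CPM) went the other way. In control Itga5 did so too (0 against 10.3 CPM), while Lpl (48.2 against 14.1 CPM) and Slc7a11 (12.05 against 3.85 CPM) did not. Each had at most 4 UMIs in the cells highest in Cd14 of these libraries. The gap in Tmem119 was wider in both libraries of 24 h than in control and at 72 h, as shown in the plot of Cd14 and Tmem119 in single cells. These groups are not alike in Cd14, as their lowest cell had 2205 CPM in control, 11485 and 3398 CPM at 24 h and 1065 CPM at 72 h. At 72 h the 21 cells held only 68 Cd14 UMIs. The 47 cells had a median of 2921 UMIs and the other cells of replicate 1 had 1916, whereas the 29 cells of replicate 2 had 833 and the others there 1138, and the part of depth or of doublets in the pattern was not tested.

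**Figure D4:**
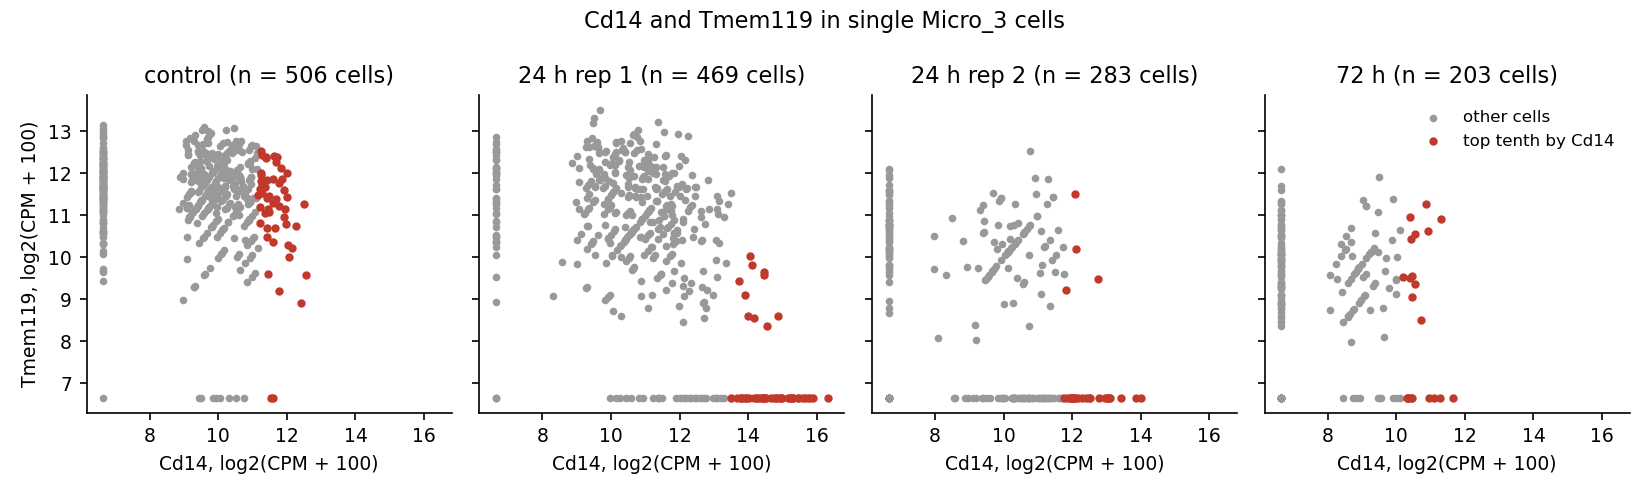
Cd14 (x axis) and Tmem119 (y axis) in single Micro_3 cells of the 4 brain libraries, as log2 of CPM plus 100, with the cells highest in Cd14 (51, 47, 29 and 21 cells) in red; points on the left and lower edges have 0 UMIs of the gene. In replicate 1 of 24 h most of the 47 red cells lie at 0 Tmem119 (10 of them have a UMI), whereas in control most red cells lie among the others.

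Over time, the pooled comparison of 24 h with control called no gene in Micro_3. Its 2 libraries of 24 h lay in different barcode sets and few degrees of freedom remained, so that the absence of calls does not show that genes were alike. By edgeR's quasi-likelihood test on 4 libraries with 1 residual degree of freedom, 0 of 8284 genes were called higher (0%) or lower (0%), with 145 genes at an unadjusted p under 0.05 and 9 genes called by DESeq2. With the pia libraries added and tissue as a covariate edgeR called 8 genes, 201 when replicate 2 was left out and 21 when replicate 1 was left out. With the barcode set as a further covariate, a choice made after seeing the data, it called 199, of which 135 were higher.

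Values within a barcode set are therefore given, from single libraries and with 95% intervals that cover counting error only. In replicate 1 of 24 h against control, 924 of 8284 genes (11.2%) were at least 2-fold higher and 575 (6.94%) at least 2-fold lower, with a median of 0.07 on the log2 scale. Of 22 homeostatic genes 0 were 2-fold higher and 7 were 2-fold lower, with a median of -0.76. P2ry12 differed by -1.90 (-1.98 to -1.82), Gpr34, a lysophosphatidylserine receptor, by -1.75 (-1.89 to -1.61) and Tmem119 by -0.66 (-0.74 to -0.58). Of 19 disease-associated genes 10 were 2-fold higher and 0 lower, of 11 chemokines 8 and 0, of 21 NF-kappaB genes 8 and 0, and of 42 ribosomal protein genes 13 and 0. MHC class II was mixed, with 1 of 9 genes 2-fold higher (Cd74, the invariant chain, at 560.6 against 260.9 CPM) and 4 lower.

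Some genes differed much more between these libraries, given here as UMIs and folds without a test. Spp1 had 4 UMIs in control and 601 in replicate 1, 131-fold higher (log2 7.03, 5.67 to 8.91), Lpl was 37.8-fold higher and Cd14 6.59-fold higher. Il1rn had 0 UMIs in control Micro_3 and 364 in replicate 1, at least 106-fold higher against a floor of 3 counts. The protease gene Adam8 was likewise at least 20.0-fold higher in replicate 1, and Ch25h, cholesterol 25-hydroxylase, at least 22.7-fold. Replicate 2, of the other barcode set, had 38 UMIs of Il1rn, 40 of Adam8 and 21 of Ch25h. Lilr4b, a receptor gene whose near-identical neighbour Lilrb4a makes its counts uncertain, had 0 UMIs in control and 373 and 105 at 24 h. Mmp12, macrophage elastase, had 1 UMI in control and 141 and 96 at 24 h, in 22 and 10 cells. In replicate 1 a single cell held 45 of them, and in replicate 2 a single cell held 70. The lowest ratios to control that held in both 24 h libraries, the second of which is across the barcode sets, were those of Tatdn3, Upk1b, Gp9, Pcmtd2 and Tnfrsf17, of which Upk1b, a uroplakin, had the most UMIs, with 129 in control and 18 and 5 at 24 h.

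At 72 h against 24 h, edgeR's quasi-likelihood test called 1 of 8284 genes higher (0.0121%) and 0 lower (0%), and DESeq2 called 0, with 67 genes at an unadjusted p under 0.05 in edgeR. Without replicate 2 and with pia added, edgeR called 1964 genes, so this count rests on that library, and with tissue and barcode set as covariates 74. Without replicate 2 the 72 h library is the only one of its barcode set, so time and barcode set cannot be told apart in that fit. The gene called in the main test was Prss34, a protease of basophils and mast cells. Its 56 UMIs were in 2 of the 203 Micro_3 cells of 72 h, and Mcpt8, a basophil protease, had 40 UMIs there.

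Against replicate 2 of the same barcode set, the 72 h library had 549 genes (6.63%) at least 2-fold higher and 1242 (15.0%) at least 2-fold lower in Micro_3, with a median of -0.24. Of 16 interferon genes 11 were 2-fold higher and 0 lower, with a median of 1.41. Ifi27l2a, an interferon-induced gene, went from 25 to 363 UMIs, 13.1-fold higher (log2 3.71, 3.13 to 4.36), Isg15 was 2.88-fold and Cxcl10 2.55-fold higher. Of 12 cell cycle genes 6 were 2-fold higher and 0 lower. Cd14 differed by -1.84 (-2.09 to -1.60) and Lpl by -1.87 (-2.24 to -1.50), whereas Ccl4 differed by 0.15 (0.10 to 0.19) and Tnf by 0.18 (0.02 to 0.34). Of 22 homeostatic genes 3 were 2-fold higher and 0 lower, among them Sparc, a matrix protein of microglia, at 2.15-fold. Each of these values compares 1 library with 1 library, and whether a change belongs to time or to the library cannot be told apart.

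**Figure D5:**
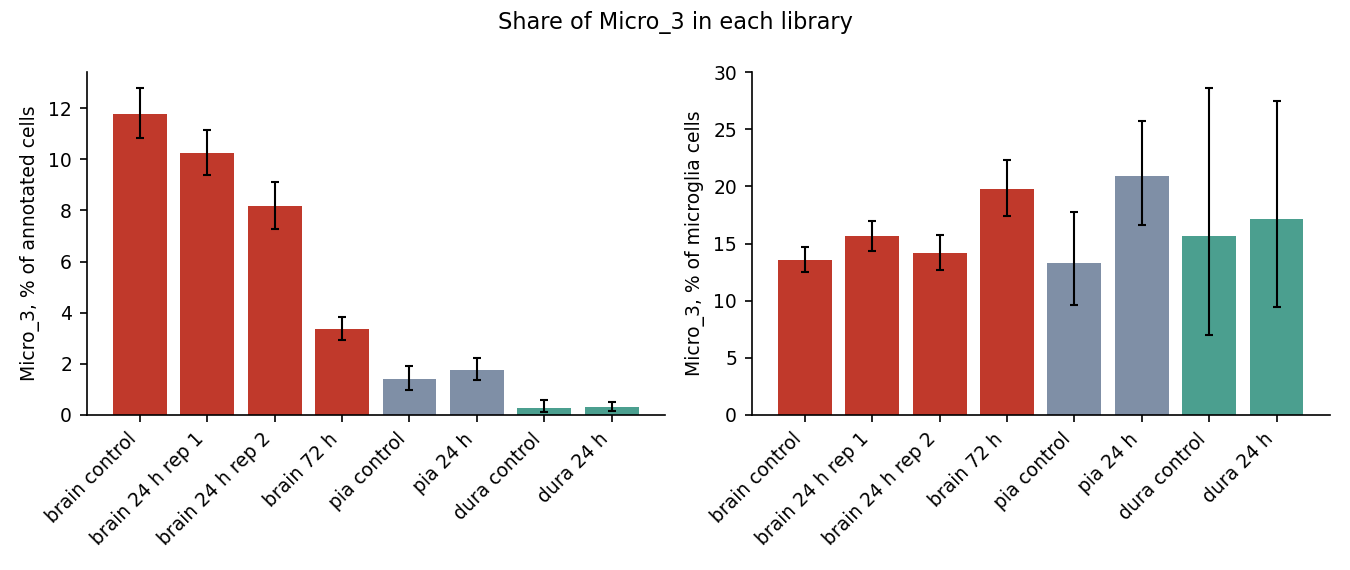
Micro_3 as a percentage of all annotated cells (left) and of microglia cells (right) in each library, with exact 95% binomial intervals for counting error only; bars start at 0. Among the brain libraries the share of annotated cells is lowest at 72 h (3.36%) and the share of microglia highest (19.8%), while pia at 24 h reaches 20.9% of microglia.

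Micro_3 made up 11.8% of annotated cells in control brain (10.8% to 12.8%, exact binomial 95% interval), 10.2% (9.37% to 11.1%) and 8.16% (7.27% to 9.12%) at 24 h, a mean of 9.20% ± 1.47 (SD, n = 2), and 3.36% (2.92% to 3.84%) at 72 h. Taken as a share of microglia (Micro_1, Micro_2, Micro_3 and stress_Micro), the values were 13.6% (12.5% to 14.7%), 15.6% (14.4% to 17.0%), 14.2% (12.7% to 15.8%) and 19.8% (17.4% to 22.3%). The order of 72 h against the other libraries thus turned with the denominator. These shares were not tested, since only brain at 24 h has more than 1 library, and the sort for CD45 makes every share depend on how many other leukocytes were in the tissue. Among cells with at least 1000 UMIs the share of microglia was 13.7%, 16.5%, 22.6% and 33.9%, so the depth of the cells moves it too.

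In pia, 39 control cells and 69 cells at 24 h were Micro_3, 1.39% and 1.76% of annotated cells, and dura held 8 and 13, 0.285% and 0.288%. Ccl4 was high here as well, at 20243 and 12804 CPM in pia, with ratios of 4.04 and 2.97. Tmem119 was at 762 and 1004 CPM and Cx3cr1 at 483 and 872 CPM. Control pia Micro_3 carried more Cd74 (22593 CPM, against 3857 CPM at 24 h), H2-Aa, an MHC class II chain (2554 against 153 CPM), and Apoe (15874 against 3975 CPM) than pia at 24 h. The 10 border macrophage genes summed to 859 and 398 CPM in pia Micro_3, with none of the 6 defining markers at 0, against a mean of 2973 and 2304 CPM in Micro_1 and Micro_2 of pia.

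Transcripts of other cell types were scarce in brain Micro_3 but differed between the barcode sets. The 12 vascular and red cell genes summed to 19.7 and 8.08 CPM in control and replicate 1, with Cldn5, Hba-a1 and Hbb-bs at 0, and to 517 and 308 CPM in replicate 2 and 72 h, where haemoglobin Hbb-bs led with 270 and 169 CPM. The 14 neuron and glia genes summed to 39.4, 26.3, 217 and 89.8 CPM in the order control, replicates 1 and 2 and 72 h, led by Mag in the first set and Mbp in the second. The 10 monocyte genes summed to 6.96, 35.4, 158 and 262 CPM, led by Fn1 after MCAO, with Ly6c2 and Plac8 at 0 in control, Plac8 at 0 in replicate 1, Ccr2 at 0 in replicate 2 and none of the 3 defining markers at 0 at 72 h. The 10 border macrophage genes summed to 64.9, 99.0, 436 and 247 CPM, nearly all of it Stab1, while Lyve1 and Cd163 were at 0 in all 4 libraries.

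Among the remaining lists, the T and NK cell genes were also higher in replicate 2 and 72 h. The others did not follow the sets in this way. The 10 neutrophil genes summed to 227, 199, 247 and 222 CPM, led by Csf3r, with Retnlg at 0 in control, replicate 2 and 72 h. The 7 B cell genes summed to 416, 222, 166 and 308 CPM, led by Ighm, with Cd79a, Ms4a1 and Igkc at 0 in control, Cd79a and Ms4a1 at 0 at 24 h and none at 0 at 72 h. The 12 T and NK cell genes summed to 18.55, 7.07, 38.5 and 25.65 CPM, led by Il7r. Cd3e was at 0 in control and both 24 h libraries and Trbc2 at 0 in control and at 72 h. The 9 dendritic cell genes summed to 603, 320, 132 and 134 CPM, nearly all of it Fscn1, with Clec9a and Cd209a at 0 in all 4 libraries. Mast cell genes had UMIs only at 72 h among the brain libraries, 14.7 CPM in sum, led by Cpa3 with Tpsb2 at 0. The part of these transcripts in the differences between libraries was not tested.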

How the data were processed

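UMI counts per gene and cell barcode were deposited by the authors, made with Cell Ranger 6.0 on mm10 per the labels, and were not normalized. The gene lists differ between the barcode sets, so more than 1 annotation was used, and its effect on the shared genes was not tested. A deposited table names the authors' cluster of each cell left after their filters on genes and mitochondrial share and removal of doublets. Its names come from Louvain clusters on Harmony components, and its UMAP coordinates are scores computed by the authors that were not used. The kit version the study gives for each library does not follow the barcode sets described above. One title disagrees with the other labels of its library, control pia, by naming brain.

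Counts were summed per library and cluster over 30406 genes shared by all libraries, matched by Ensembl identifier. Library totals ranged from 6591898 to 20754181 UMIs, and Micro_3 sums in brain were 862443, 989980, 493315 and 545703 UMIs for control, replicates 1 and 2 of 24 h and 72 h. Intervals and the floor of 3 counts cover counting error only. The main test was edgeR's quasi-likelihood test (version 4.0.16 in R 4.3.3) with robust estimates, after filterByExpr and TMM scaling, and DESeq2 1.42.0 was the alternative. All tests were two-sided, and the steps were tested on simulated data. Sums, ratios and intervals were made in Python 3.11.15 with pandas 2.3.3, scipy 1.17.1 and numpy 2.4.6, and drawn with matplotlib 3.10.9.

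The members, 28 gene lists and tests were chosen with earlier results of these data known. Named genes were those of the lists, the 10 highest and 10 lowest mean ratios, the 5 highest and 5 lowest calls of the test of the 24 h change and the called gene of 72 h, and, as no gene was called at 24 h, the 5 genes in each direction with the largest smaller ratio of both 24 h libraries to control. Abundant genes with the highest or lowest ratios, genes called by DESeq2, and genes of the cells highest in Cd14, were named after their values were seen. Alternatives planned were DESeq2, scaling by library size, dropping the filter on low counts, deep or thinned cells, no library block, added pia libraries, other comparators, fold limits and denominators, and libraries left out. The barcode set as a covariate, the limit of 100 CPM, the limit to genes with a UMI in each library, the pia libraries in the test of the 24 h change and comparisons within a set were added after seeing the data. Some genes are not reported here.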

Additional observations from a re-analysis of the deposited data

Results flagged for a closer look

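The change from control to 24 h was called different between Micro_3 and the mean of Micro_1 and Micro_2 in 57 genes. The difference was tested directly as an interaction in edgeR's quasi-likelihood fit with the library as a block. Control brain is 1 library, so the spread in this test comes from the brain libraries of 24 h, which lie in different barcode sets. Of the 42 genes called higher, 21 were also among the 431 genes counted higher than in Micro_1 and Micro_2 (50.0% of the first list, 4.87% of the second), and of the 15 in the other direction 4 were among the 383 counted lower (26.7% and 1.04%). Over all 9738 genes tested 4.43% were counted higher and 3.93% lower, and both lists use the same ratios of the 24 h libraries, so the overlap is no independent support. Tested apart, the change in Micro_3 differed from that of Micro_1 in 34 genes and from that of Micro_2 in 33. The same test at 72 h, where 1 library stands for the condition, called 6 genes.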

How the results depend on the processing

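For 24 h against control, the count of 0 called genes was 9 with DESeq2, 3 with library size alone, 8 with pia added and 199 with tissue and barcode set as covariates, and leaving out a 24 h library from brain and pia gave 21 to 201. For 72 h against 24 h, the count of 1 was 0 with DESeq2, 2 among cells of at least 1000 UMIs, 4 with pia added and 74 with barcode set, and 1 to 1964 with a 24 h library left out. The 57 genes of the test of the 24 h change were 2 with DESeq2, 17 among cells of at least 1000 UMIs, 14 with pia added and 0 without the library block, where 21 genes had an unadjusted p under 0.05 in edgeR, and 52 with library size alone, 40 without the filter and 58 without the 72 h library. Genes counted higher than in Micro_1 and Micro_2 (431) were 184 at 2-fold, 728 in thinned cells, of which 246 were shared with the 431, 1247 without the filter, 405 with a UMI in each library and 64 of at least 100 CPM, and 496 to 497 with a 24 h library left out. Genes counted lower (383) were 90 at 2-fold, 372 in thinned cells, of which 108 were shared with the 383, and 42 of at least 100 CPM, and 450 to 510 with a 24 h library left out. The shares of annotated cells (11.8%, 10.2%, 8.16% and 3.36%) were 13.6%, 15.6%, 14.2% and 19.8% of microglia, and the 24 h mean of 9.20% was 8.16% to 10.2% with a library left out. For these differences the cause was not tested. For values of single genes, 235 kept direction and side of the threshold or moved by less than the spread, 19 moved, 16 passed the threshold and 39 no longer did. No value changed its direction among those called. No paired analysis was possible because the labels number only the libraries of brain at 24 h. Without one library of 24 h the tests on brain alone have no residual degrees of freedom, and these were not run as tests. Genes with fewer than about 10 UMIs in control Micro_3 have folds that this depth fixes poorly.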
